A study of Homo sapiens with 6 samples.

Results

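The genes described here are 8 that encode molecules by which a tumour cell can restrain an immune cell, or that hold such a molecule on the tumour cell surface: CD274 (PD-L1), PDCD1LG2 (PD-L2), CD276 (B7-H3), CD47, PVR (CD155), NECTIN2 (CD112), CMTM6 and LGALS9 (galectin-9). They were taken by name for this role, although earlier results of these data were known when they were chosen, and are 8 of the 28395 genes counted. All 8 were counted in every library, and 7 of them passed the filter on low counts and were among the 16381 genes tested; LGALS9 did not pass.

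Total RNA was sequenced from A375, an established human melanoma line with an activating BRAF mutation, grown in RPMI medium and treated for 72 h. There were 3 groups of 2 libraries: vehicle (DMSO at 0.01%), palbociclib at 1 µM, which inhibits the cell cycle kinases CDK4 and CDK6, and GSK3326595 at 500 nM, which inhibits the arginine methyltransferase PRMT5. All 3 groups are the same single line in culture, with no immune cells added, and the vehicle libraries serve as controls for both inhibitors. The labels number the replicates without saying whether they are separate cultures, so p-values reflect only how far these libraries differ, and that spread may be technical. Transcripts were measured, not protein on the cell surface.

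PD-L1 and PD-L2 bind the receptor PD-1 on T cells and dampen their activation, and PD-L1 is known to be induced by interferon gamma through the kinases JAK1 and JAK2 and the transcription factor IRF1. B7-H3 belongs to the same B7 family. CD47 binds SIRPA on macrophages and restrains phagocytosis; PVR and NECTIN2 are ligands of the lymphocyte receptors TIGIT, CD226 and, for PVR, CD96; CMTM6 is a membrane protein that protects PD-L1 from degradation; and galectin-9 is a secreted lectin that binds TIM-3.

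CD274 and CD276 are the members called in the main fit, which does not pair the libraries by replicate number. With replicates blocked by number CMTM6 and PVR were called as well. The sequences before the CD274 and CD276 start sites are printed because the members' promoters differ in composition and in the motifs they hold. Both are the 250 bases before a start site in RefSeq (GRCh38.p14), on the plus strand. In the CD274 sequence the capitals mark, in order, 2 overlapping matches to the interferon response core (GAAA, any 2 bases, GAAA, read on the minus strand), 1 match to TTCNNNGAA (a GAS site, an element of interferon gamma response genes) and 1 GC box, GGGCGG. In the CD276 sequence, taken before the first start in the RefSeq promoter table, which lies inside the annotated gene span, the capitals mark GC boxes on either strand and 1 CCAAT box.
CD274, chr9:5450292-5450541: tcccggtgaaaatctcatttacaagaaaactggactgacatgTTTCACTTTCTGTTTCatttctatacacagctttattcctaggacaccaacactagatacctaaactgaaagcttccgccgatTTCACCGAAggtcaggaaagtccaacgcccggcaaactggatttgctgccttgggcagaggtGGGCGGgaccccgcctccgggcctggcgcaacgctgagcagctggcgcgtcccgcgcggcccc
CD276, chr15:73684133-73684382: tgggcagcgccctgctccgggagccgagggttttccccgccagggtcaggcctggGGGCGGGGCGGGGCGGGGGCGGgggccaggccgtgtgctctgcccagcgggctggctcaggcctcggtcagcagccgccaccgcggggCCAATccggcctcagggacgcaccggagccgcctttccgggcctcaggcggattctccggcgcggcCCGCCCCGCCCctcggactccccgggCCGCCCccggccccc

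Promoters of 7 of the 8 members were in the RefSeq table, which did not list PDCD1LG2. G and C made up 54.8% of the CD274 window and 80.8% of the CD276 window, against a median of 58% over 27305 promoters. The interferon response core was found in 3.07% of all promoters searched on both strands, and among the 7 members only in CD274, at 208 to 199 and 202 to 193 bases before the start. The GAS motif was found in 6.78% of promoters, and in CD274 at 125 to 117 bases before the start. GC boxes, which 42.3% of promoters hold, were found at 7 places in CD276, 6 in CD47, 5 in CMTM6, 3 in NECTIN2 and 1 in CD274, with no match in PVR or LGALS9. CCAAT boxes (33% of promoters) include one in CD276 at 107 to 103 bases before the start. An E2F-type motif, TTTNNCGC, which 5.93% of promoters hold, was found in NECTIN2 alone, at 185 to 178 bases before the start. The AP-1 motif TGANTCA (6.6% of promoters) and the E-box CACGTG (6.49%) had no match in the 7 windows. These matches describe letters only and are not binding sites measured in these cells.

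Total counts ranged from 16589153 to 20842099 per library. The 10 melanoma and melanocyte markers summed to between 958 and 1155 CPM (counts per 1000000 of TMM-adjusted library size) in every library, most of it CSPG4 (745 to 897 CPM), with SOX10 and MITF next. TYR and DCT stayed under 1 CPM throughout, and MLANA, PMEL and MIA lay between 0.815 and 2.45 CPM. Of 8 T and NK cell markers 7 stayed under 1 CPM in all libraries, 1 of these at 0, and the 8 together summed to between 1.46 and 4.52 CPM. The remaining marker was CD4, at 1.05 to 4.13 CPM. Among the myeloid markers, PTPRC, CD14, CD163 and ITGAM stayed under 1 CPM, and the 7 listed summed to 89.7 to 96.9 CPM with DMSO, 83.5 to 91.2 with palbociclib and 71.7 to 74.5 with GSK3326595. Most of this was CD68 (63.1 to 89.0 CPM), which was lower with both inhibitors (edgeR adjusted p = 0.0239 and 0.00728). The palbociclib call of CD68 was lost by DESeq2 (adjusted p = 0.0628). It was also lost without DMSO replicate 1 (log2 -0.22) or 2 (-0.32) or palbociclib replicate 2 (-0.21). The GSK3326595 call was lost without DMSO replicate 1 (-0.38). LYZ, at 3.49 to 14.1 CPM, was higher with palbociclib (log2 1.59 ± 0.224 SE, edgeR adjusted p = 0.000168). Fibroblast markers summed to 36.8 to 46.2, 29.3 to 36.0 and 53.4 to 59.1 CPM in the same order, with COL1A2 and DCN under 1 CPM in all. PDGFRB (14.0 to 28.3 CPM) and COL1A1 (5.95 to 28.4 CPM) made up most of this. COL1A1 was lower with palbociclib (log2 -1.07) and higher with GSK3326595 (1.05), both called by edgeR. The other tested fibroblast markers did not all follow it. With palbociclib LUM rose (2.10, edgeR adjusted p = 6.54e-05), PDGFRA was at 1.01 (adjusted p = 0.0501) and PDGFRB fell (-0.64, adjusted p = 0.00805). The PDGFRB call was lost without DMSO replicate 1 (-0.41) or palbociclib replicate 2 (-0.49). With GSK3326595 LUM (0.80), PDGFRA (-0.11) and PDGFRB (-0.04) were not called. Keratinocyte markers summed to 39.5 to 44.0, 73.4 to 77.2 and 50.1 to 51.6 CPM, with KRT1, EPCAM and CDH1 under 1 CPM in all and most of it DSP (37.0 to 69.4 CPM). B cell markers summed to 0.312 to 1.32 CPM over all libraries. Endothelial markers summed to 4.63 to 4.68 CPM with DMSO, 6.24 to 6.45 with palbociclib and 3.84 to 5.88 with GSK3326595. Among them KDR, at 6 and 3 reads with DMSO, rose with both inhibitors (log2 3.68 and 2.49, edgeR adjusted p = 4.15e-05 and 0.00451). PECAM1 was lower with palbociclib (-0.96, edgeR adjusted p = 0.0401, but 0.0739 by DESeq2), and VWF was called with neither. The part of the fibroblast, myeloid and keratinocyte sums in the results was not tested. In bulk RNA, fewer cells with a transcript and less of it per cell cannot be told apart.

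Per kilobase of annotated exon, the DMSO levels of the members spanned from CMTM6 at the top to LGALS9 at the bottom. In CPM per kilobase they were 46.7 ± 3.59 (SD, n = 2, as for all means here) for CMTM6, 34.9 ± 1.12 for PVR, 30.0 ± 1.37 for CD276, 11.2 ± 0.766 for NECTIN2, 8.14 ± 0.306 for CD47, 1.56 ± 0.109 for CD274, 0.822 ± 0.137 for PDCD1LG2 and 0.0465 ± 0.0244 for LGALS9. Each neighbouring pair in that order was apart in both DMSO libraries. PD-L1 and PD-L2 transcripts were thus low in vehicle-treated A375 cells, while those of CMTM6, PVR and B7-H3 were abundant.

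With palbociclib, CD276 (42.5 ± 2.72 CPM per kilobase) stood level with CMTM6 (40.5 ± 2.35), their libraries overlapping, and PDCD1LG2 (1.22 ± 0.284) stood level with CD274 (0.928 ± 0.155), again with overlap. With GSK3326595 the libraries of CMTM6 (38.8 ± 2.76), PVR (36.6 ± 2.31) and CD276 (34.5 ± 5.34) overlapped from one to the next, and CD274 (2.93 ± 0.713) stood clear of PDCD1LG2 (1.27 ± 0.227). The order of NECTIN2, CD47 and LGALS9 was the same in the 3 groups.

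**Figure D1:**
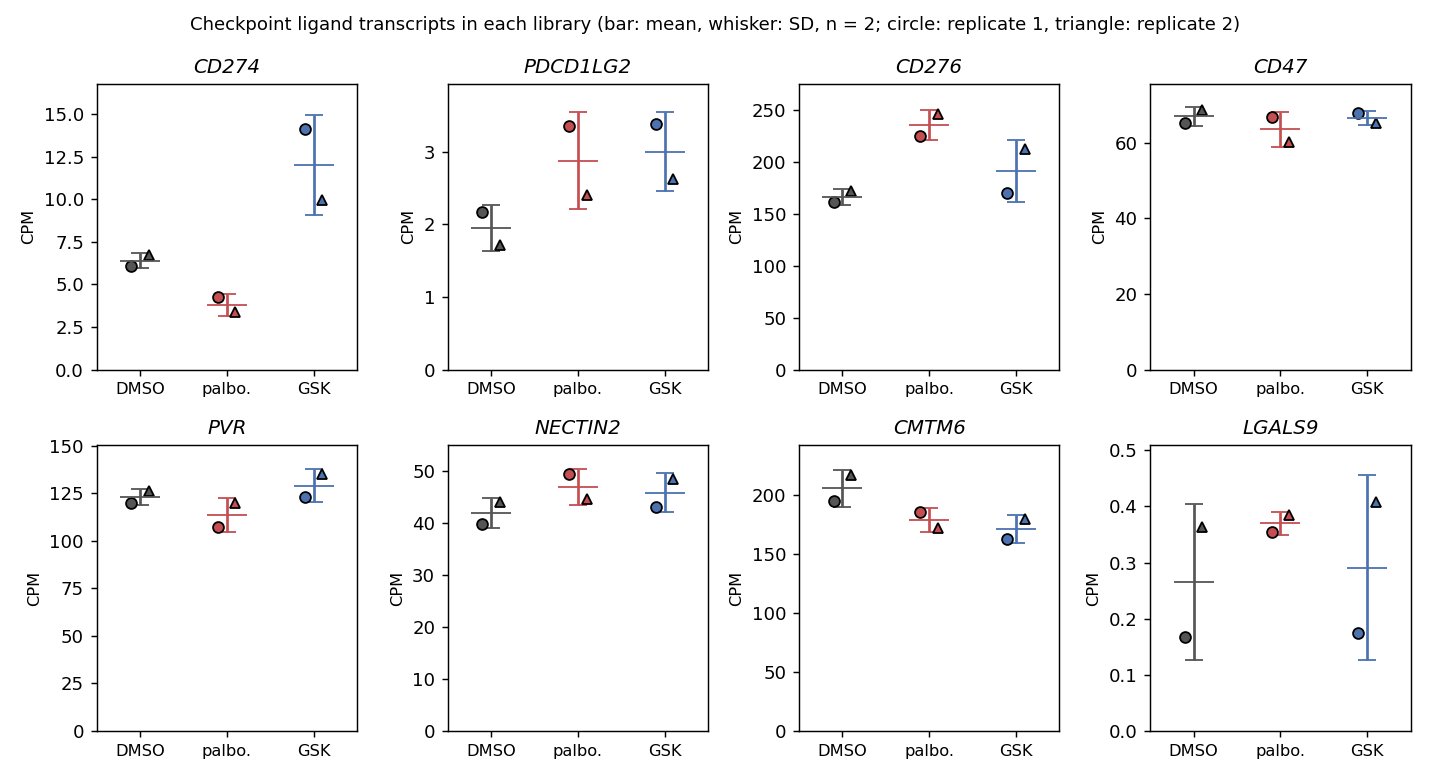
Level of each of the 8 checkpoint ligand genes in CPM (y axis, linear from 0, with its own scale for each gene) in the DMSO, palbociclib (palbo.) and GSK3326595 (GSK) libraries; circles are replicate 1, triangles replicate 2, bars the mean and whiskers the SD of 2 libraries. CD274 is lowest in both palbociclib libraries and highest in both GSK3326595 libraries, and CD276 is highest in both palbociclib libraries.

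CD274, the gene of PD-L1 (Gene ID 29126; GRCh38 chromosome 9, 5450542 to 5470554), moved in opposite directions with the 2 inhibitors. It was at 6.08 and 6.71 CPM in the DMSO libraries, at 4.26 and 3.36 CPM with palbociclib and at 14.1 and 9.95 CPM with GSK3326595. The 3 groups did not overlap. These levels rest on 70 to 242 reads per library, or a counting SD of 6.43% to 12.0%, and the first GSK3326595 library was the highest of the 6.

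Against DMSO, CD274 fell by 1.68-fold with palbociclib (log2 fold change -0.75 ± 0.223 SE, 95% interval -1.23 to -0.26; edgeR quasi-likelihood adjusted p = 0.0188). It rose 1.88-fold with GSK3326595 (0.91 ± 0.203, interval 0.47 to 1.35; edgeR adjusted p = 0.00965). Between the inhibitors CD274 was 3.16-fold lower with palbociclib (log2 -1.66 ± 0.214, interval -2.12 to -1.19; edgeR adjusted p = 0.000144), and 101 of the 16381 genes tested (0.617%) were at least as far lower in that comparison. For comparison, 9.44% of genes fell at least as far in log2 with palbociclib against DMSO, and 3.27% were at least as far higher with GSK3326595 against DMSO.

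The difference between the inhibitors was the firmest of these. It passed the test in each of the 13 alternative settings, with log2 values from -1.89 to -1.37 and edgeR or DESeq2 adjusted p from 6.38e-11 to 0.00307. The fall with palbociclib missed the threshold without DMSO replicate 2 (-0.65, edgeR adjusted p = 0.0946) or palbociclib replicate 2 (-0.58, adjusted p = 0.15). The rise with GSK3326595 missed it without DMSO replicate 1 (0.82, adjusted p = 0.0586), and was 0.63 (adjusted p = 0.0486) without GSK3326595 replicate 1.

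PDCD1LG2, the gene of PD-L2 (Gene ID 80380; chromosome 9, 5510531 to 5571282), starts 60 kb from the CD274 start. The RefSeq non-coding gene INCR1, which is not among the genes counted, spans 13124 bp of CD274 and 60752 bp of PDCD1LG2. PDCD1LG2 was at 2.17 and 1.72 CPM with DMSO, at 3.35 and 2.4 CPM with palbociclib and at 3.38 and 2.62 CPM with GSK3326595. Both DMSO libraries lay below all 4 treated libraries. The levels rest on 33 to 66 reads, a counting SD of 12.3% to 17.4%, and no difference passed the test. The log2 fold change was 0.56 ± 0.292 SE with palbociclib (interval -0.07 to 1.20; edgeR adjusted p = 0.146) and 0.63 ± 0.296 with GSK3326595 (interval -0.02 to 1.27; edgeR adjusted p = 0.164), both against the same DMSO libraries. Between the inhibitors it was -0.06 ± 0.279 (interval -0.67 to 0.54; adjusted p = 0.884), so a difference of up to about that interval was not detectable at this depth.

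CD276, the gene of B7-H3 (Gene ID 80381; chromosome 15, 73683944 to 73714514), was higher with palbociclib. It was at 161 and 172 CPM with DMSO, 225 and 246 CPM with palbociclib and 170 and 212 CPM with GSK3326595. Both palbociclib libraries were above the other 4, and the lower GSK3326595 library lay between the DMSO libraries. At 2889 to 5131 reads the counting SD was 1.4% to 1.86%, so the spread between the GSK3326595 libraries was well beyond counting error.

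CD276 rose 1.42-fold with palbociclib against DMSO (log2 0.50 ± 0.107 SE, interval 0.27 to 0.74; edgeR adjusted p = 0.00294), and kept that call in each of the 13 alternatives (0.43 to 0.57, adjusted p 2.16e-08 to 0.0384). With GSK3326595 the log2 fold change was 0.20 ± 0.107 (interval -0.03 to 0.44; edgeR adjusted p = 0.215); with replicates blocked by number its adjusted p was 0.0216, and without GSK3326595 replicate 1 it was 0.0363 at a log2 value of 0.35. CD276 was higher with palbociclib than with GSK3326595 by 0.30 ± 0.107 (interval 0.07 to 0.53; edgeR adjusted p = 0.0464). That last call was lost with no filter on low counts (adjusted p = 0.0572), without palbociclib replicate 1 (0.36, adjusted p = 0.0865) or 2 (0.23, adjusted p = 0.265) and without GSK3326595 replicate 1 (0.17, adjusted p = 0.285).

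Levels of CD47 (Gene ID 961; chromosome 3, 108043091 to 108091031), the signal that restrains phagocytosis, lay within a narrow range. It was at 65.2 and 68.7 CPM with DMSO, 66.8 and 60.1 with palbociclib and 67.8 and 65.2 with GSK3326595. The groups overlapped. The log2 fold change was -0.08 ± 0.0897 SE with palbociclib (interval -0.27 to 0.12; edgeR adjusted p = 0.524) and -0.01 ± 0.09 with GSK3326595 (interval -0.21 to 0.19; edgeR adjusted p = 0.959), and between the inhibitors it was -0.07 ± 0.0899 (interval -0.26 to 0.13; adjusted p = 0.602).

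PVR and NECTIN2, the TIGIT ligands, lie near each other on chromosome 19, PVR (Gene ID 5817) at 44643910 to 44666162 and NECTIN2 (Gene ID 5819) at 44846297 to 44889223. PVR was at 120 and 126 CPM with DMSO, 107 and 120 with palbociclib and 123 and 135 with GSK3326595. Its higher palbociclib library and its lower DMSO library share the rounded value of 120, and the GSK3326595 libraries overlapped those of DMSO. PVR was not called in either comparison with DMSO, at -0.11 ± 0.0879 SE with palbociclib (interval -0.31 to 0.08; edgeR adjusted p = 0.321) and 0.07 ± 0.088 with GSK3326595 (interval -0.12 to 0.26; edgeR adjusted p = 0.637). Between the inhibitors it was -0.18 ± 0.088 (interval -0.37 to 0.01; edgeR adjusted p = 0.129), and with replicates blocked by number that adjusted p was 0.0193.

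NECTIN2 was at 39.8 and 43.9 CPM with DMSO, 49.3 and 44.5 with palbociclib and 43.1 and 48.4 with GSK3326595. The palbociclib libraries lay above those of DMSO by a margin smaller than the spread within either group. The log2 fold changes were 0.17 ± 0.105 SE (interval -0.06 to 0.39; edgeR adjusted p = 0.232) and 0.13 ± 0.106 (interval -0.10 to 0.36; edgeR adjusted p = 0.431), and 0.04 ± 0.105 between the inhibitors (interval -0.19 to 0.26; adjusted p = 0.823).

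CMTM6, the protector of PD-L1 protein (Gene ID 54918; chromosome 3, 32481312 to 32502852), was at 195 and 217 CPM with DMSO, 186 and 172 with palbociclib and 163 and 180 with GSK3326595. All 4 treated libraries lay below both DMSO libraries. The log2 fold change was -0.20 ± 0.0928 SE with palbociclib (interval -0.41 to 0.00; edgeR adjusted p = 0.101) and -0.27 ± 0.0931 with GSK3326595 (interval -0.47 to -0.06; edgeR adjusted p = 0.0671), neither of which passed. With replicates blocked by number both did, at adjusted p = 0.0126 and 0.00218, and with unscaled library totals the second did, at 0.0284. Between the inhibitors CMTM6 differed by 0.06 ± 0.0931 (interval -0.14 to 0.26; edgeR adjusted p = 0.647). In GENCODE v29 it overlaps CMTM7 on the opposite strand by 1756 bp, and the strand setting of the counting is not given in the sources used here.

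LGALS9, the gene of galectin-9 (Gene ID 3965; chromosome 17, 27631188 to 27649560), was close to undetected, with 3 and 7 reads in the DMSO libraries, 7 and 8 with palbociclib and 3 and 7 with GSK3326595. That is 0.167 to 0.407 CPM, and the groups overlapped. Without the filter on low counts its edgeR log2 fold change was 0.45 with palbociclib (interval -0.99 to 1.89; adjusted p = 0.682) and 0.12 with GSK3326595 (interval -1.44 to 1.68; adjusted p = 0.984), so no direction was detectable at this depth. LGALS9 has the near-identical copies LGALS9B and LGALS9C, which held at most 1 read in any library. In GENCODE v29 the protein-coding gene AC015688.4 overlaps 10980 bp of the LGALS9 span on the same strand. Whether the counting took that gene into account is not given in the sources used here.

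Of the 7 members tested, 1 was called higher (CD276) and 1 lower (CD274) with palbociclib against DMSO, a comparison in which 39.5% of all 16381 genes were called, 19.3% higher and 20.2% lower. With GSK3326595 1 member was called higher (CD274) and none lower, against 18.8% of all genes called (8.58% higher, 10.2% lower). By DESeq2 0 members were lower with GSK3326595 too, and in edgeR 1, CMTM6, was lower at an unadjusted threshold of 0.05. Between the inhibitors 1 was higher with palbociclib (CD276) and 1 lower (CD274), against 34.8% of genes called (16.6% higher, 18.2% lower). The members' median log2 fold change was -0.08 with palbociclib, 0.13 with GSK3326595 and -0.06 between them, beside -0.02, 0.00 and -0.03 over all genes. With palbociclib 6 of the 7 had libraries that did not overlap those of DMSO, 3 higher and 3 lower, as did 72.5% of all genes (35.1% higher, 37.4% lower). With GSK3326595 3 did, 2 higher and 1 lower, against 57.3% of all genes (27.6% higher, 29.7% lower). Between the inhibitors 3 did, 1 higher and 2 lower with palbociclib, against 67.4% (31.8% higher, 35.7% lower).

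**Figure D2:**
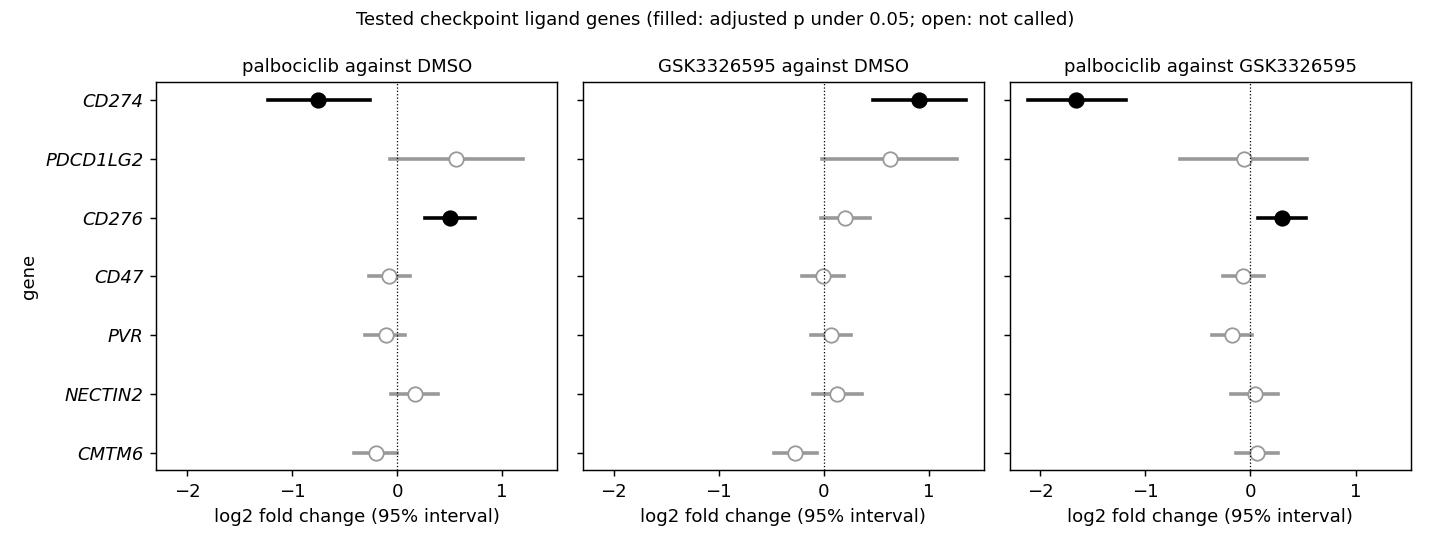
Log2 fold change (x axis) of the 7 tested checkpoint ligand genes (y axis) in the 3 comparisons, with 95% intervals as lines; filled points passed an adjusted p of 0.05. CD274 passes in all 3 panels, negative against DMSO with palbociclib and positive with GSK3326595, and the intervals of CD47, PVR and NECTIN2 include 0 in each.

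The known route from interferon gamma to PD-L1 holds 14 genes on the list used, all of which were tested. The counts for this and the later lists stand beside the shares of all genes called. These were 39.5% with palbociclib (19.3% higher, 20.2% lower) and 18.8% with GSK3326595 (8.58% higher, 10.2% lower). With palbociclib 4 rose, STAT2 and STAT3 among them, SOCS3 fell and 9 did not pass, with a list median of 0.14; these 5 calls held with each library left out in turn, and with the replicate block 6 were higher. STAT2, a transcription factor of the interferon response, rose by 0.71 ± 0.12 SE in log2 (edgeR adjusted p = 0.000653), STAT3 by 0.48 ± 0.0855 (adjusted p = 0.000928), and SOCS3, a feedback inhibitor of JAK kinases, changed by -0.59 ± 0.104 (adjusted p = 0.000798).

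IRF1, the factor known to switch on the PD-L1 gene, was at 18.6 and 18.1 CPM with DMSO, 17.3 and 17.5 with palbociclib and 17.6 and 17.8 with GSK3326595, and passed in neither comparison (log2 -0.07 ± 0.112 and -0.05 ± 0.113; edgeR adjusted p = 0.64 and 0.806). JAK1 was at 0.21 ± 0.0793 with palbociclib (adjusted p = 0.0527), a value that passed in 7 of the alternatives, among them the replicate block at 0.00645. JAK2 was at 0.17 ± 0.149 (adjusted p = 0.388). With GSK3326595 only STAT3 of the 14 rose (0.32 ± 0.0858, edgeR adjusted p = 0.0215, between 0.0928 and 0.132 without either DMSO library or GSK3326595 replicate 2) and 13 did not pass, with a median of -0.07; edgeR and DESeq2 called 0 lower (1, SOCS3, at an unadjusted p under 0.05), while the replicate block called 3 lower (JAK2, STAT2 and SOCS3). JAK2 was at -0.31 ± 0.154 with GSK3326595 (adjusted p = 0.188; 0.0307 with the replicate block).

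The protein of PD-L1 is also set by ubiquitin ligases, palmitoylation and glycosylation, and 19 of 20 listed genes of these steps were tested. The list counts stand beside 39.5% of all genes called with palbociclib and 18.8% with GSK3326595. With palbociclib 6 rose, 2 fell (5 with the replicate block) and 11 did not pass, with a median of -0.04; 4 of the 8 calls held with each library left out. CCND1, the cyclin that activates CDK4 and so takes part in marking PD-L1 for degradation, was at 501 and 478 CPM with DMSO, 841 and 846 with palbociclib and 466 and 532 with GSK3326595. Both palbociclib libraries were far above the rest, and CCND1 rose by 0.79 ± 0.1 SE in log2 with palbociclib (edgeR adjusted p = 7.98e-05) while it was at 0.03 ± 0.1 with GSK3326595 (adjusted p = 0.87). ZDHHC9, an enzyme that palmitoylates PD-L1, rose by 0.87 ± 0.117 (adjusted p = 0.000121), and STUB1, a ubiquitin ligase, rose by 0.54 ± 0.0865 (adjusted p = 0.000444).

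CUL3, the scaffold of the ligase that targets PD-L1, changed by -0.38 ± 0.09 with palbociclib (edgeR adjusted p = 0.00545, but 0.11 without DMSO replicate 2), and FZR1, an activator of the anaphase-promoting ligase, by -0.27 ± 0.0834 (adjusted p = 0.0225, but 0.0717 by DESeq2 and 0.0751 to 0.148 without any 1 of the DMSO or palbociclib libraries). CDK4 itself was at -0.17 ± 0.0896 with palbociclib (adjusted p = 0.147) and -0.17 ± 0.0898 with GSK3326595 (adjusted p = 0.219); with the replicate block these were 0.0272 and 0.0448. With GSK3326595 ZDHHC9 alone of the 19 rose, by 0.43 ± 0.119 (edgeR adjusted p = 0.0247, but 0.155 without DMSO replicate 2 and 0.142 without GSK3326595 replicate 2), and 18 did not pass, with a median of 0.02; the replicate block called 4 higher and 2 lower.

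Of the CMTM family, membrane proteins related to CMTM6, 5 of 7 were tested. Shares of all genes called were 39.5% with palbociclib and 18.8% with GSK3326595. CMTM4, which is known to share the role of CMTM6 in protecting PD-L1, was at 65.8 and 68.6 CPM with DMSO, 61.1 and 57.6 with palbociclib and 65.2 and 59.5 with GSK3326595. It passed in neither comparison (log2 -0.18 ± 0.0893 SE, edgeR adjusted p = 0.129, and -0.11 ± 0.0896, adjusted p = 0.436), although the first passed with the replicate block at 0.0343, under which CMTM7 was lower as well (-0.26, adjusted p = 0.00188). In the unblocked edgeR fit over all 6 libraries and by DESeq2 0 of the family were lower with palbociclib (1, CMTM7, at an unadjusted p under 0.05), but edgeR called CMTM7 with only the 2 groups compared (0.0318), without DMSO replicate 2 (0.0402) and without either GSK3326595 library (0.0389 and 0.0316). With palbociclib CMTM8 rose by 0.82 ± 0.183 (edgeR adjusted p = 0.00377) and 4 did not pass. With GSK3326595 CMTM3 rose by 0.47 ± 0.0907 (edgeR adjusted p = 0.00405), 3 did not pass and CMTM7 was lower, at log2 -0.37 ± 0.1 (edgeR adjusted p = 0.024). The CMTM7 call was lost without DMSO replicate 1 (-0.28) or GSK3326595 replicate 1 (-0.32).

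**Figure D3:**
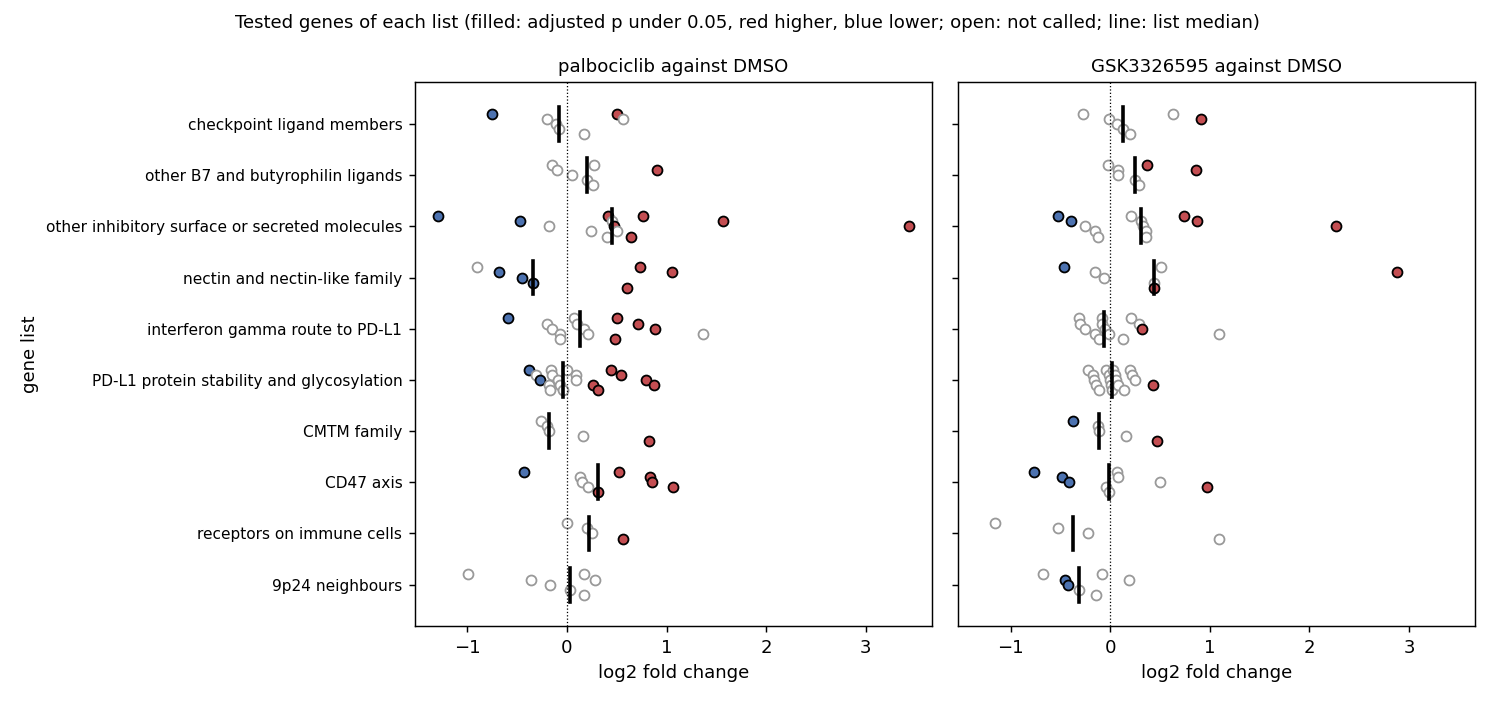
Log2 fold change against DMSO (x axis) of each tested gene in the 8 checkpoint ligands and in 9 related gene lists (y axis), for palbociclib and for GSK3326595; filled points passed an adjusted p of 0.05 (red higher, blue lower), open points did not, and the black line is the list median. The list medians lie between -0.34 and 0.45 with palbociclib and between -0.37 and 0.44 with GSK3326595.

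Among other B7 and butyrophilin ligands 7 of 12 were tested, beside 39.5% of all genes called with palbociclib and 18.8% with GSK3326595. VSIR, which encodes the inhibitory B7 relative VISTA, rose with both inhibitors. It was at 7.25 and 7.18 CPM with DMSO, 12.1 and 14.8 with palbociclib and 11.2 and 15.0 with GSK3326595, so all treated libraries exceeded the controls they share. Its log2 fold changes were 0.90 ± 0.176 SE (edgeR adjusted p = 0.0017) and 0.86 ± 0.179 (adjusted p = 0.00661), and both calls held with each library left out. The other 6 did not pass with palbociclib (list median 0.20); of these, NCR3LG1 was called with the replicate block (0.20, adjusted p = 0.0315). With GSK3326595 NCR3LG1, a ligand of the NK receptor NKp30, also rose (0.37 ± 0.0901, adjusted p = 0.0141, but 0.102 without DMSO replicate 1), and 5 did not pass (list median 0.25; 3 of the 7 were higher with the replicate block).

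Another list held 15 surface or secreted molecules, not all of them inhibitory: TNFSF4, CD70 and TNFSF9 are ligands of co-stimulatory receptors. Of the 15, 13 were tested. With palbociclib 6 rose, 2 fell and 5 did not pass (median 0.45), beside 39.5% of all genes called. With GSK3326595 3 rose, 2 fell and 8 did not pass (median 0.31), beside 18.8% of all genes called. Of these calls 6 of 8 and 2 of 5 held with each library left out, and with the replicate block 8 were higher and 3 lower with palbociclib and 4 and 3 with GSK3326595. CD24, a ligand of the macrophage receptor Siglec-10, was at 3 and 6 reads with DMSO, 51 and 57 with palbociclib and 20 and 21 with GSK3326595, and rose by 3.43 ± 0.409 SE and 2.27 ± 0.464 in log2 (edgeR adjusted p = 4.81e-05 and 0.00592), from a level close to the limit of detection. TNFSF4, the gene of OX40 ligand, rose by 1.57 ± 0.293 with palbociclib (adjusted p = 0.00121), and LGALS3, the gene of galectin-3, by 0.64 ± 0.127 (adjusted p = 0.00193). CD70, the ligand of CD27, rose by 0.74 ± 0.106 with GSK3326595 (adjusted p = 0.000614), and TNFRSF14, the partner of the receptor BTLA, by 0.87 ± 0.212 (adjusted p = 0.0149, but 0.101 without DMSO replicate 2 and 0.0595 without GSK3326595 replicate 1). HMGB1, a chromatin protein that is also a secreted ligand of TIM-3, was at 227 and 284 CPM with DMSO, 96.5 and 112 with palbociclib and 171 and 183 with GSK3326595; it changed by -1.29 ± 0.115 with palbociclib (adjusted p = 4.64e-06) and -0.52 ± 0.113 with GSK3326595 (adjusted p = 0.00781, but 0.0705 without DMSO replicate 2). ENTPD1, which breaks down extracellular ATP, changed by -0.47 ± 0.11 with palbociclib (adjusted p = 0.00513, but 0.0659 without DMSO replicate 2 and 0.0626 without palbociclib replicate 1). With GSK3326595 it changed by -0.39 ± 0.111 (adjusted p = 0.0285, but 0.175 without DMSO replicate 2, 0.07 and 0.0512 without either GSK3326595 library).

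Among relatives of PVR and NECTIN2, 7 of 8 were tested. Their counts stand beside 39.5% of all genes called with palbociclib and 18.8% with GSK3326595. NECTIN4, an adhesion protein and a ligand of TIGIT, was at 1.28 and 1.14 CPM with DMSO, 2.54 and 2.5 with palbociclib and 8.21 and 9.72 with GSK3326595. The 3 groups were far apart, and NECTIN4 rose by 2.88 ± 0.243 SE in log2 with GSK3326595 (edgeR adjusted p = 2.89e-05) and by 1.05 ± 0.27 with palbociclib (adjusted p = 0.00873, but 0.0552 without DMSO replicate 2). The difference between the inhibitors was itself called, at -1.83 for palbociclib against GSK3326595 (adjusted p = 8.92e-05). NECTIN1, at 36.7 and 46.7 CPM with DMSO and 23.9 and 28.1 with palbociclib, changed by -0.68 ± 0.133 with palbociclib (adjusted p = 0.00167), while the nectin-like adhesion genes CADM1 and CADM4 rose by 0.73 ± 0.152 (adjusted p = 0.00259) and 0.60 ± 0.137 (adjusted p = 0.00452). AFDN, the scaffold that nectins bind inside the cell, changed by -0.45 ± 0.128 with palbociclib (adjusted p = 0.0146, but 0.0885 without DMSO replicate 1 and 0.139 without palbociclib replicate 2) and by -0.46 ± 0.129 with GSK3326595 (adjusted p = 0.0277, but 0.122 without DMSO replicate 1 and 0.151 without GSK3326595 replicate 2). NECTIN3, a partner of NECTIN2 in adhesion, changed by -0.34 ± 0.103 with palbociclib (adjusted p = 0.0193, but 0.236 without DMSO replicate 2 and 0.19 without palbociclib replicate 1). CADM4 was higher with GSK3326595 too, at 0.44 ± 0.138 (adjusted p = 0.0454), but at 0.17 (adjusted p = 0.388) without GSK3326595 replicate 2, and at adjusted p from 0.0611 to 0.159 without any 1 of the DMSO or palbociclib libraries. In all 3 of the 7 rose, 3 fell and 1 did not pass with palbociclib (median -0.34), and 2 rose, 1 fell and 4 did not pass with GSK3326595 (median 0.44). Of these calls, 3 of 6 and 1 of 3 held with each library left out, and with the replicate block 3 were higher with GSK3326595.

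On the CD47 axis, 9 of 10 genes were tested, beside 39.5% of all genes called with palbociclib and 18.8% with GSK3326595. With palbociclib 5 rose (7 with the replicate block), 1 fell and 3 did not pass (median 0.31), and QPCT, LRP1 and MFGE8 kept their calls with each library left out; QPCT, a relative of the enzyme QPCTL that modifies CD47 for binding to SIRPA, rose by 1.06 ± 0.157 SE (edgeR adjusted p = 0.000247). LRP1, an uptake receptor on phagocytes and other cells, rose by 0.85 ± 0.153 (adjusted p = 0.00099), and MFGE8, a secreted bridge between dying cells and phagocytes, by 0.83 ± 0.113 (adjusted p = 0.000129). With GSK3326595 THBS1, the gene of thrombospondin-1, a secreted CD47 ligand, was at 3150 and 3726 CPM against 1598 and 1902 with DMSO, and rose by 0.97 ± 0.142 (adjusted p = 0.000698). It was at 2386 and 2632 CPM with palbociclib and rose by 0.52 ± 0.141 (edgeR adjusted p = 0.0114). The palbociclib call was lost without DMSO replicate 1 (log2 0.40) or palbociclib replicate 2 (0.45). SIRPA, the receptor of CD47, was at 12.9 and 14.0 CPM with DMSO and 7.1 and 8.79 with GSK3326595, a change of -0.76 ± 0.156 (adjusted p = 0.00592). With palbociclib SIRPA was at -0.43 ± 0.15 (adjusted p = 0.0387), a call lost by DESeq2 (0.115) and without any 1 of the DMSO or palbociclib libraries (0.071 to 0.205). ITGB3, an integrin subunit that associates with CD47, changed by -0.48 ± 0.0862 with GSK3326595 (adjusted p = 0.00274), and QPCTL by -0.41 ± 0.118 (adjusted p = 0.0315, but 0.0733 by DESeq2 and 0.0566 to 0.208 without any 1 library other than DMSO replicate 1). QPCTL was higher with palbociclib, at 0.31 ± 0.113 (edgeR adjusted p = 0.0461). That call was lost by DESeq2 (adjusted p = 0.1) and with no filter on low counts (edgeR adjusted p = 0.0662). It was also lost without DMSO replicate 1 (log2 0.21) or either palbociclib library (0.34 and 0.28). In all 1 rose (2 with the replicate block), 3 fell and 5 did not pass with GSK3326595 (median -0.01).

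The neighbours of CD274 on chromosome 9 were read beside it. Of 10 listed genes that start within 466 kb of the CD274 start, PDCD1LG2 apart, 7 were tested, JAK2 among them. Over all genes, 39.5% were called with palbociclib and 18.8% with GSK3326595. With palbociclib, in which CD274 fell, 0 of the 7 were called in the unblocked edgeR fit over all 6 libraries or by DESeq2 (median 0.03), and at an unadjusted p under 0.05 1 was, PLGRKT (log2 -0.36, edgeR adjusted p = 0.0559). PLGRKT was called with the replicate block (0.0155), with only the 2 groups compared (0.0458) and without GSK3326595 replicate 2 (0.0475). With GSK3326595, in which CD274 rose, 0 rose, by DESeq2 and at an unadjusted p as well, and PLGRKT and ERMP1 were lower, at -0.45 ± 0.142 SE (edgeR adjusted p = 0.0458) and -0.42 ± 0.116 (adjusted p = 0.0262). This PLGRKT call was lost by DESeq2 (adjusted p = 0.112). In edgeR it was lost with library totals (adjusted p = 0.059), no filter on low counts (0.0502) and only the 2 groups compared (0.0744). It was also lost with each left-out library, at log2 values from -0.55 to -0.37. The ERMP1 call was lost with library totals (edgeR adjusted p = 0.0575) and without DMSO replicate 1 (log2 -0.36) or GSK3326595 replicate 2 (-0.30). With the replicate block 3 of the neighbours were lower. RIC1, which starts 179 kb from CD274, was at 0.03 and -0.08 with palbociclib and GSK3326595.

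The genes whose levels followed CD274 most closely over the 6 libraries, by the root mean square difference of centred log2 CPM among 11059 genes searched, were ZNF202 (0.116) and PEAR1 (0.159). ZNF202, a zinc finger transcription factor, was at 23.3 and 22.7 CPM with DMSO, 14.6 and 14.0 with palbociclib and 45.9 and 36.9 with GSK3326595. PEAR1, a platelet and endothelial receptor, was at 14.2 and 15.7, 8.32 and 8.4, and 26.7 and 18.9 CPM. For CD276 the closest were IRS1 (0.0223), at 122 and 134 CPM with DMSO, 174 and 195 with palbociclib and 134 and 162 with GSK3326595, and UFC1 (0.029). These genes were picked for their likeness, so it is a description with no test.

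**Figure D4:**
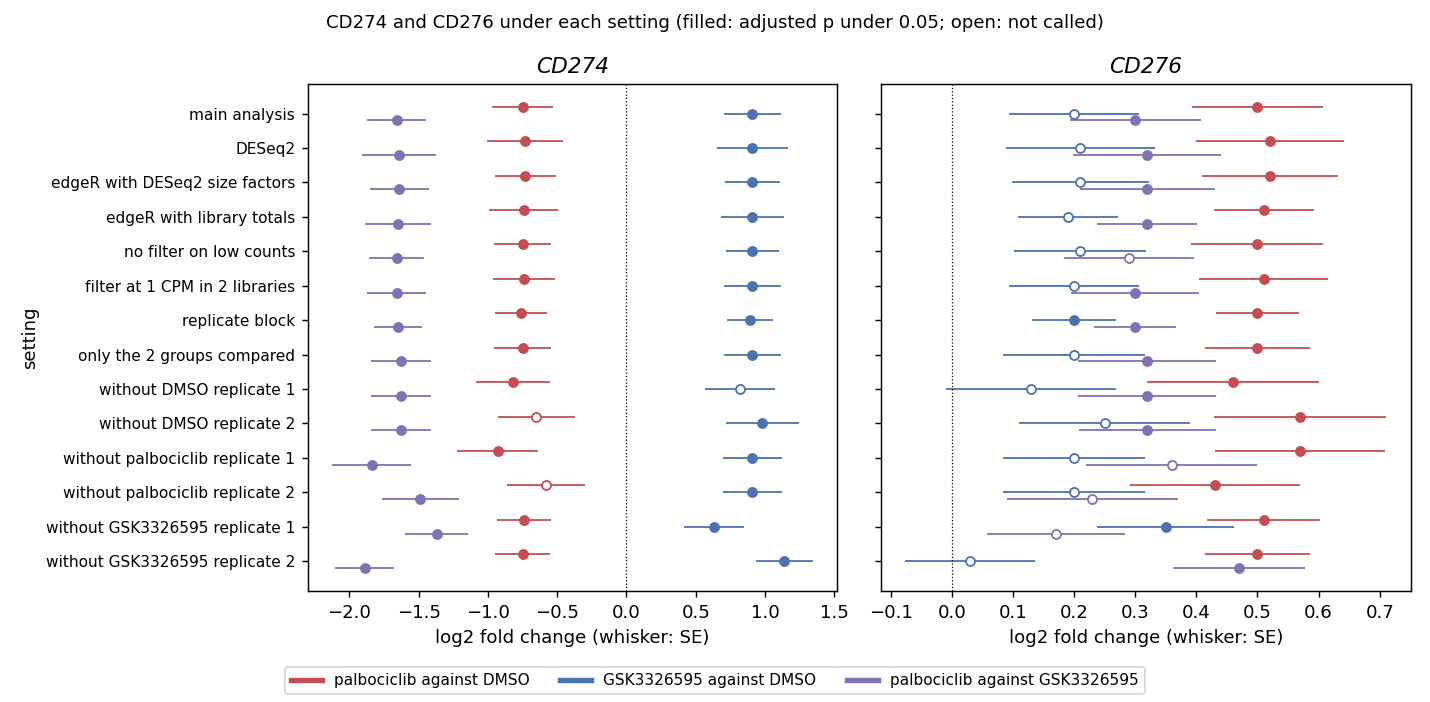
Log2 fold change with its SE (x axis) of CD274 and CD276 in the 3 comparisons under the main analysis and the 13 alternatives (y axis); filled points passed an adjusted p of 0.05, open points did not. CD274 keeps its direction throughout, and its difference between the inhibitors and the rise of CD276 with palbociclib stay filled in every setting.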

How the data were processed

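Raw read counts per gene, 1 table for each of the 6 libraries, were deposited by the authors with no normalization, per the file headers and values. HISAT2, featureCounts 1.6.2, cutadapt 1.7, CASAVA 1.8.2, limma and the build hg38 are listed per the submitters' processing notes; per the labels' protocols ribosomal RNA was depleted and TruSeq v2 libraries were made. Which annotation, strand setting and rule for multiply aligned reads applied is not given in the sources used here, so overlapping and near-identical genes are uncertain. Of the 28395 gene IDs, 27745 matched the RefSeq table (GRCh38.p14); the 650 unmatched held 0.233% to 0.508% of counts and stayed in the totals and tests.

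Counts were tested with edgeR 4.0.16 in R 4.3.3. Genes passing filterByExpr (minimum count 10), 16381 in all, were scaled by TMM and fitted by quasi-likelihood with 1 coefficient per group over 6 libraries (3 residual degrees of freedom). F tests were two-sided and Benjamini-Hochberg adjusted over all genes, and called under 0.05. The SE was derived as |log2 fold change| over the root of F. Replicates differed beyond counting noise (chi-square per degree of freedom 8.33, 5.48 and 10.7 for DMSO, palbociclib and GSK3326595). Same-numbered libraries deviated together (r = 0.179, 0.341 and 0.14 over 16381 genes for DMSO with palbociclib, DMSO with GSK3326595 and the inhibitors). The numbers come from the labels, which do not say what they pair. The main fit leaves this possible pairing out, and the replicate block, run as an alternative, takes it in. Blocked values are printed where they change a call of a member, and as counts for the lists.

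Alternatives were DESeq2 1.42.0, its size factors, library totals, no low-count filter, 1 CPM in 2 libraries, the replicate block, only the groups compared, and each library left out. The fit was checked on simulated counts. Members and lists were chosen with earlier results of these data known. Named list genes are CCND1, CDK4, CMTM4, IRF1, JAK1 and JAK2, with the called genes of smallest p in each list, at most 3 per direction. LAG3, PVRIG, TNFSF9 and single cell type markers were named after their values were seen. One gene that this rule names is not reported here.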

Additional observations from a re-analysis of the deposited data

How the results depend on the processing

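The 13 alternatives left 260 of 273 values for single members on the same side of the threshold. With the replicate block the genes called with GSK3326595 against DMSO went from 3081 to 5769. The same block gave 2 members lower with palbociclib (CD274 and CMTM6), 2 higher (CD274 and CD276) and 1 lower (CMTM6) with GSK3326595, and 2 lower between the inhibitors (CD274 and PVR); it changed no other call among the members. Unscaled library totals gave 1 member lower with GSK3326595 (CMTM6), and without a filter on low counts 0 members were higher with palbociclib than with GSK3326595 by edgeR. Leaving out 1 library moved the members called with palbociclib to between 0 and 1 lower, those with GSK3326595 to between 0 and 2 higher, and those higher with palbociclib than with GSK3326595 to between 0 and 1. The genes called then ranged from 3993 to 7189 with palbociclib, from 1738 to 3206 with GSK3326595 and from 3299 to 5519 between the inhibitors. A lone library left in a group is assumed to vary like the other groups.

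Directions reversed only for uncalled members, with 1 library left out. CD47 with GSK3326595 then ranged from -0.07 to 0.03 (0.03 without DMSO replicate 2, 0.02 without GSK3326595 replicate 2). Between the inhibitors PDCD1LG2 ranged from -0.32 to 0.16 (0.16 without palbociclib replicate 2, 0.15 without GSK3326595 replicate 1), CD47 from -0.15 to 0.01 (0.01 without palbociclib replicate 2) and NECTIN2 from -0.04 to 0.12 (-0.04 without palbociclib replicate 1, -0.03 without GSK3326595 replicate 1). The cause was not tested. Depth limits PDCD1LG2 and LGALS9 most, and 2 libraries per group limit all members.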

Other observations

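Of the 15 immune cell receptors listed 11 did not pass the filter on low counts, but CD96, a lymphocyte receptor for PVR, was abundant (Gene ID 10225; GRCh38 chromosome 3, 111542197 to 111665996). CD96 was at 145 and 146 CPM in the DMSO libraries, 213 and 216 with palbociclib and 117 and 132 with GSK3326595. The palbociclib libraries were above all others and the GSK3326595 libraries below. CD96 rose by 0.56 ± 0.0851 SE in log2 with palbociclib (edgeR adjusted p = 0.000296), a call kept with each library left out. It was at -0.22 ± 0.0859 with GSK3326595 (adjusted p = 0.0959, but 0.00901 with the replicate block and 0.0392 with library totals). Between the inhibitors it was higher with palbociclib by 0.78 (adjusted p = 5.53e-05). The T and NK cell markers CD3D, CD3E, CD3G, CD2, CD8A, NKG7 and GNLY stayed under 1 CPM in every library. CD4, the other marker listed, was at 3.62 and 2.44 CPM with DMSO, 4.06 and 4.13 with palbociclib and 1.63 and 1.05 with GSK3326595. CD4 was lower with GSK3326595 than with DMSO (log2 -1.17 ± 0.319 SE, edgeR adjusted p = 0.0245) and than with palbociclib (edgeR adjusted p = 0.00184). The call against DMSO, on 18 to 65 reads, was lost without DMSO replicate 1 (-0.89) or GSK3326595 replicate 2 (-0.89). With palbociclib against DMSO CD4 was not called (0.44 ± 0.271, edgeR adjusted p = 0.221). The gene ZBED2, which lies within CD96, was at 0.914 to 2.65 CPM. Of the 4 receptors tested, CD96 alone was called with palbociclib (list median 0.22), beside 39.5% of all genes. With GSK3326595 0 were called by edgeR or DESeq2 (list median -0.37), beside 18.8% of all genes by edgeR. At an unadjusted p under 0.05 in edgeR 3 were, LAG3 higher and CD96 and PVRIG lower. The replicate block called the same 3. LAG3 held 15 and 17 reads with DMSO and 47 and 16 with GSK3326595, so its rise rests on GSK3326595 replicate 1 alone.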
